A study of Mus musculus with 14 samples.

Results

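The enzymes that write and erase DNA methylation are described here through 9 mouse genes, Dnmt1, Dnmt3a, Dnmt3b, Dnmt3l, Uhrf1, Tet1, Tet2, Tet3 and Tdg. They were taken by gene name from the 16181 protein-coding genes of the deposited CPM table, and each name matched 1 gene. All 9 were retained by the filter on low counts in each of the 7 tests used below. They were measured in mouse embryonic stem cells (ESCs) and in embryoid bodies (EBs), the clumps in which these cells differentiate spontaneously into many cell types. An ESC line with an Osr1-GFP reporter was given a stable shRNA either against Dis3l2 (shDis3l2) or against LacZ, a bacterial gene that mouse cells lack (shLacZ, the control line). Undifferentiated ESCs kept with LIF and 2i, a mixture that holds ESCs in a naive state, were sampled at d0, and EBs formed in hanging drops in serum without these factors were sampled every other day from d2 to d12. There was 1 library of polyA RNA per line and day, 14 in all, so a difference between the lines on 1 day has no replicate check, and each line stands for 1 cell line only.

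Library totals ran from 7178712 to 39888099 counts, so that 3 counts correspond to 0.0985 to 0.385 scaled CPM. Levels are given as scaled CPM, CPM computed on the library total multiplied by its TMM factor (the trimmed mean of M values, a correction for library composition). That factor was lowest in the ESC libraries, 0.764 (shLacZ) and 0.642 (shDis3l2), and lay between 0.999 and 1.12 in the EBs. Dis3l2, the knocked-down gene, encodes an exonuclease that degrades uridylated RNAs. Where 7 levels of a line are listed, they follow the days from d0 to d12. Its level in shLacZ was 37.6, 14.6, 20.3, 23.0, 20.2, 18.6 and 18.8. In shDis3l2 it was 6.12, 4.24, 6.54, 12.4, 18.3, 17.1 and 13.3. Beyond counting error, Dis3l2 was therefore lower in shDis3l2 at d0 to d6 and at d12. At d8 and d10 the ratio of the lines, 0.907 and 0.921, had 95% counting intervals that included 1 (0.782 to 1.05 and 0.764 to 1.12). In the tests of the lines described below, Dis3l2 was not called at d6 to d12 (log2 difference -0.35, SE 0.16, edgeR adjusted p = 0.126). It was not called over all 7 days either (-1.08, SE 0.30, edgeR adjusted p = 0.0599). The log2 difference of the lines for Dis3l2 was higher at d6 to d12 than at d0 to d4 by 1.61 (SE 0.29, edgeR adjusted p = 0.0112). At d0 the 7 markers of undifferentiated stem cells summed to 4287 in shLacZ and 3848 in shDis3l2, with Pou5f1, a core pluripotency factor, at 1569 and 1120.2.

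DNMT1 copies methylation of CpG sites onto the new DNA strand after replication, and UHRF1 binds the half-methylated sites and brings DNMT1 to them. DNMT3A and DNMT3B methylate new sites, and DNMT3L is a partner of both without catalytic activity of its own. TET1, TET2 and TET3 oxidise methylcytosine, and TDG, a glycosylase, cuts the most oxidised forms out of DNA for base excision repair. Naive ESCs in 2i are known for low DNA methylation, and the exit towards the epiblast state for a wave of new methylation.

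The RefSeq sequences just upstream of the starts of Dnmt3b, Dnmt3l, Tet1, Tet2 and Tet3 are shown because these 5 genes differed between the lines at d6 to d12 in all alternatives tried. Each is written 5′ to 3′ on the strand of the gene and ends 1 base before the RefSeq start (GRCm38.p6), is 100 bases long (88 for Tet1) and has CG dinucleotides in capitals. For Tet1, 12 bases annotated as UTR are left out.
Dnmt3b, chr2:153649349-153649448, plus strand: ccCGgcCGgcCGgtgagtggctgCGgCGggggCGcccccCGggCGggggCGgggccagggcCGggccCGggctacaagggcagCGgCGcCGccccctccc
Dnmt3l, chr10:78042187-78042286, plus strand: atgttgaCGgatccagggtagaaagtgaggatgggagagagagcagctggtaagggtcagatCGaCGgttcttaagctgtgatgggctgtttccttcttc
Dnmt3l, chr10:78049742-78049841, plus strand: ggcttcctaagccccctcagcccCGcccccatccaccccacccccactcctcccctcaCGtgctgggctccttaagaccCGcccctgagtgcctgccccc
Dnmt3l, chr10:78055235-78055334, plus strand: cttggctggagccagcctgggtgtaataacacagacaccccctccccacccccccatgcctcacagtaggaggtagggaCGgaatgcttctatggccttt
Tet1, chr10:62887325-62887412, minus strand: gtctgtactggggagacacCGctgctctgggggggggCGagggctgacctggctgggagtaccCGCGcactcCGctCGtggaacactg
Tet2, chr3:133544391-133544490, minus strand: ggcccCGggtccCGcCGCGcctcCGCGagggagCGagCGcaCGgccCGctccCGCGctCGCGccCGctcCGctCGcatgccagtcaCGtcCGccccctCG
Tet3, chr6:83441679-83441778, minus strand: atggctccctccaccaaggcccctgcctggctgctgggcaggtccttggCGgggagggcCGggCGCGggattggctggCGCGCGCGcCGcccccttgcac

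The promoters differed widely in CG content. Over the 250 bases before the start, Tet2 had 51 CG dinucleotides, a number reached by 0.067% of the 32851 RefSeq promoters, and Dnmt3b had 21, reached by 16.3%. The median promoter had 6. The windows of Dnmt3l had 5, 4 and 3, all under that median, and those of the other 4 genes were over it. Tet1 had 15 and Tet3 17. The GC box letters GGGCGG, searched on both strands and each holding a CG itself, were present 3 times before Dnmt3b, 1 time before each Tet gene and in 1 of the 3 windows of Dnmt3l, where they were present 2 times, and 32.7% of all promoters had them. The octamer letters ATGCAAAT, searched on both strands, were in none of these windows and in 1.601% of all promoters. The counts per gene do not show which of the Dnmt3l starts was in use, nor which start was in use for the other 4 genes. The starts shown for Tet1 (62887324), Tet2 (133544390) and Tet3 (83441678) lie inside the counted spans, which reach upstream to 62908996, 133545139 and 83459084. Those shown for Dnmt3l also lie inside its span, which reaches upstream to 78041947.

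In the count table, Dnmt1 spans chr9:20907209-20959888, Dnmt3a chr12:3806007-3914443, Dnmt3b chr2:153649450-153687730 and Dnmt3l chr10:78041947-78063622. Uhrf1 spans chr17:56303321-56323486 and Tdg chr10:82629828-82650799. Tet1 spans chr10:62804570-62908996, Tet2 chr3:133463679-133545139 and Tet3 chr6:83362373-83459084. All coordinates are of GRCm38, and counts are sums over the exons of each gene. Whether counting used strand is not given in the sources used here. Aire, which overlaps Dnmt3l on the opposite strand, stood at 43.3 and 33.1 scaled CPM in the d0 libraries, 16.6 and 26.2 at d2 and at or below 3.03 from d4 on. Without strand, reads from the exons that overlap cannot be told apart. Dnmt3a, Dnmt3b, Tet2 and Tet3 overlap noncoding genes on the opposite strand, for which the same holds. Tdg overlaps Glt8d2, a protein-coding gene on the opposite strand, which stood at 2.10, 4.12 and 3.01 scaled CPM in shDis3l2 at d8, d10 and d12 and at or below 0.363 in the other 11 libraries.

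During differentiation the writers and erasers did not move as 1 group. From d0 to d2, Dnmt3a, Dnmt3b, Tet1, Tet3, Tdg and Dnmt1 rose and Uhrf1 fell. From d2 to d4, Dnmt3l, Dnmt3a and Tet1 fell, and from d4 to d6 Tet1 and Uhrf1 fell further while Tet3 rose again. These steps were tested with edgeR over all 14 libraries, with line as a term, so that the 2 libraries of a day, 1 per line, served as the repeat observations of that day. They differ in shRNA and are not replicates of 1 condition, so the p-values measure the spread between these libraries only. At d0 to d2, 7 of the 9 genes passed an adjusted p of 0.05, and so did 65.5% of the 20050 genes tested. Over all genes 6924 were called higher and 6212 lower, a split that was 9265 and 4107 with library totals, where the median log2 fold of all genes was 0.71 in place of 0.12. At d2 to d4 it was 3 of 9 against 17.5%, and at d4 to d6 3 of 9 against 13.8%. From d6 to d12 none of the 9 passed with edgeR or with DESeq2, 3 of 9 (Dnmt3a, Tet2 and Uhrf1) had an unadjusted p under 0.05, and 7.18% of all genes passed.

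**Figure D1:**
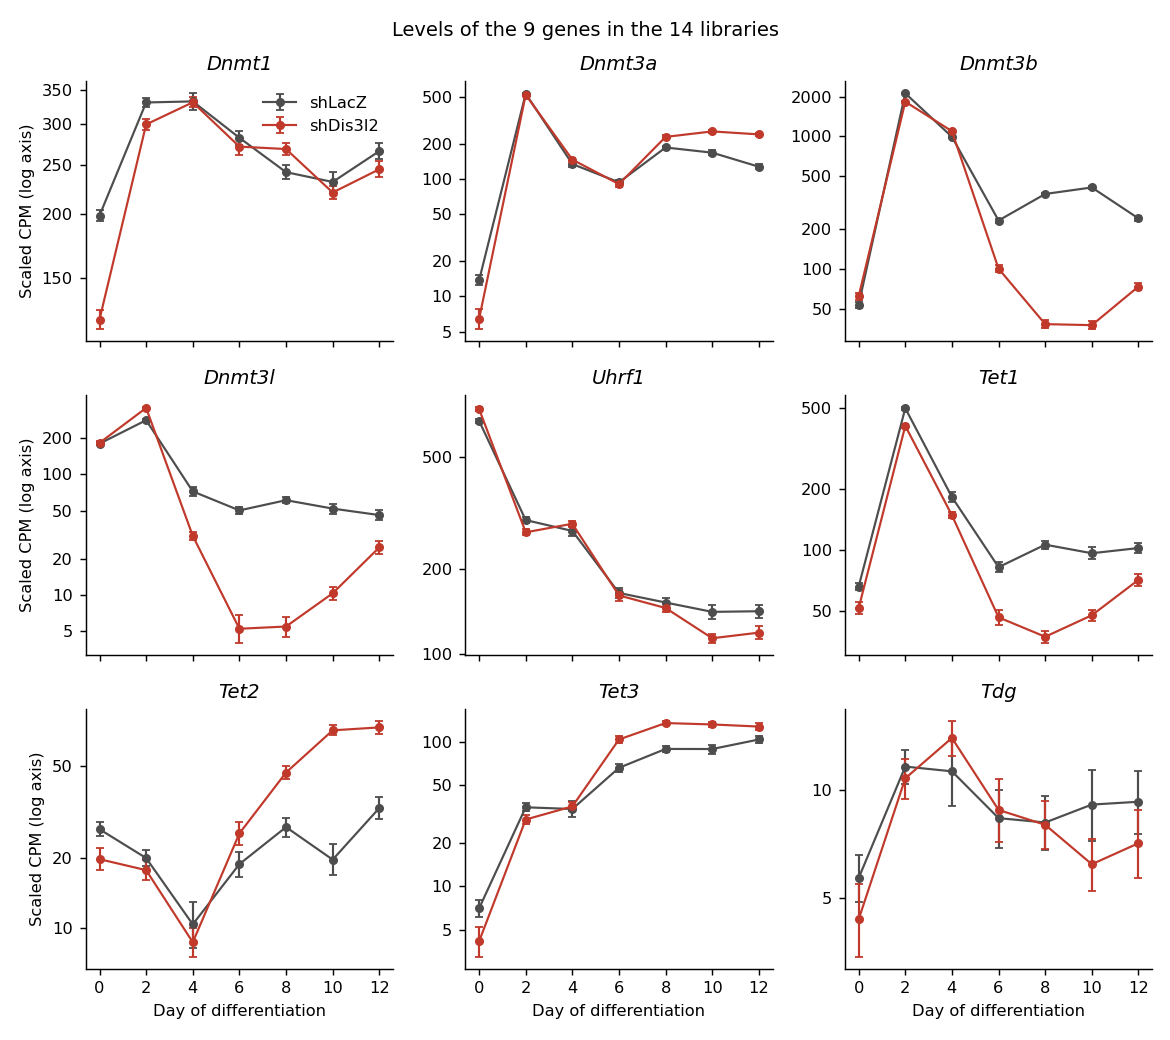
Scaled CPM (log axis) of the 9 genes by day of differentiation, 1 point per library, shLacZ in grey and shDis3l2 in red, with 95% intervals that cover counting error only. Dnmt3b, Dnmt3a and Tet1 have their highest point at d2 in both lines. From d6 on the counting intervals of the lines lie apart on each day for Dnmt3b, Dnmt3l, Tet1, Tet2 and Tet3. The share of all genes that lie apart in this way was not counted.

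**Figure D2:**
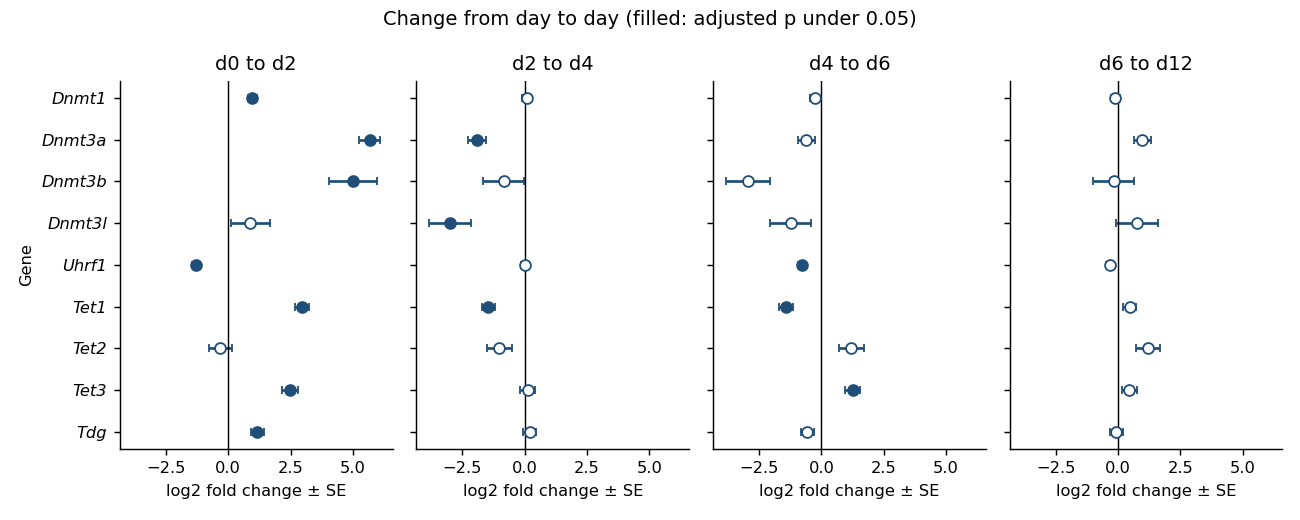
The log2 fold change with its SE between consecutive sampling days, and from d6 to d12, for each of the 9 genes from edgeR over the 14 libraries. Filled points passed an adjusted p of 0.05, which 7 genes did at d0 to d2, 3 at d2 to d4, 3 at d4 to d6 and none at d6 to d12.

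Between the lines, the clearest differences of the members lay at d6 to d12, where Dnmt3b, Dnmt3l and Tet1 were lower and Tet2, Tet3 and Dnmt3a higher in shDis3l2. The edgeR test over d6, d8, d10 and d12, with day as a block, called 3 of the 9 genes higher and 3 lower, against 38.3% of 17164 genes called in either direction. The median log2 fold over the 9 genes was -0.10 and that over all genes 0.02. Over all 7 days only Tet1 passed (lower in shDis3l2), against 5.72% of genes called. Whether the difference at d6 to d12 exceeded that at d0 to d4 was tested as an interaction. It passed for Dnmt3b and Dnmt3l, which became lower, and for Tet2 and Tet3, which became higher, 4 of 9 against 10.1% of all genes. Over all genes 972 were called higher and 1051 lower, which became 1139 and 415 with library totals. The days of a line served as repeat observations in these tests, and they come from 1 course of differentiation per line, so separate cultures were not compared. Where late libraries of the lines are said below not to overlap, the share of all genes with such a separation was not counted.

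On single days, a gene was counted when the lines differed at least 2-fold and 1 of the 2 libraries had a scaled CPM of at least 1. At d0, 1 of the 9 genes did (Dnmt3a, lower in shDis3l2), against 8.97% of the protein-coding genes compared, and at d2 none did, against 1.6%. Dnmt3l alone was past 2-fold at d4, where the background was 6.67%. Dnmt3b and Dnmt3l were past it at d6 (15.2%), and Dnmt3b, Dnmt3l and Tet1 at d8 (20.2%), all lower in shDis3l2. At d10 the same 3 genes were lower and Tet2 was higher (23.4%), and at d12 Dnmt3b was lower and Tet2 higher (17.6%). Some of these calls lay close to 2-fold and depended on the scaling. With library totals the ratio of Dnmt3a at d12 was 2.02 in place of 1.89 and that of Tet3 at d0 0.498 in place of 0.592, both then past 2-fold. Tet1 at d10 was no longer past it with library totals (0.510) or DESeq2 size factors (0.503), nor was Dnmt3a at d0 with DESeq2 size factors (0.516).

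**Figure D3:**
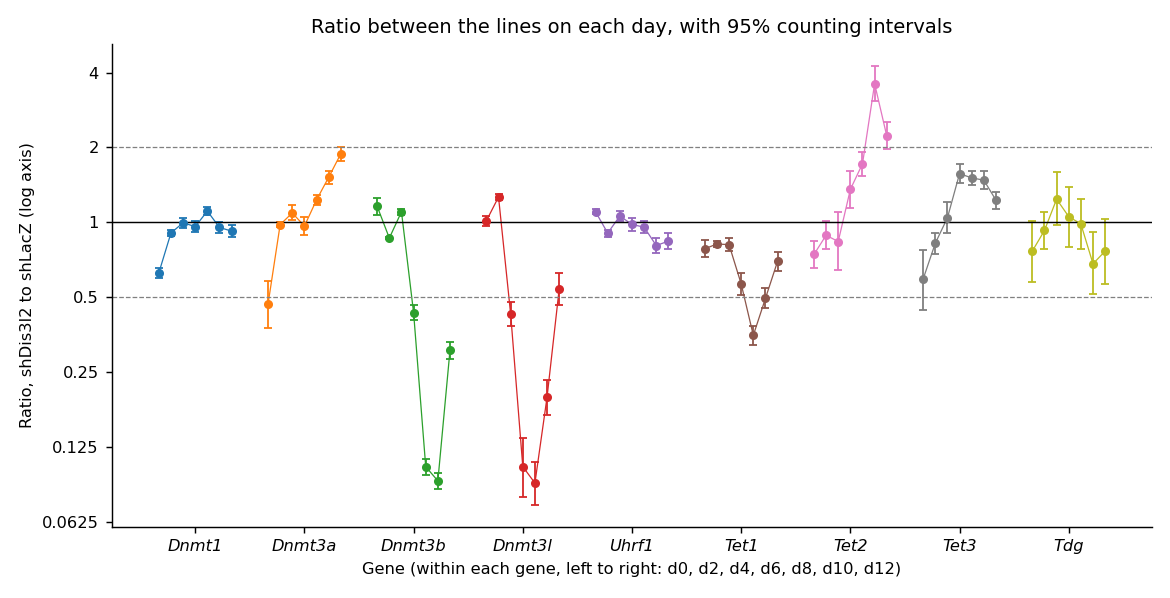
Ratio of scaled CPM, shDis3l2 to shLacZ (log axis), for each gene, with the 7 days from left to right and 95% intervals from the counts alone. The dashed lines mark 2-fold, and the lowest points are Dnmt3l at d8 (0.0895) and Dnmt3b at d10 (0.0914), the highest Tet2 at d10 (3.61).

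Among the maintenance factors, Dnmt1 was the steadiest of the 9 genes. Its scaled CPM in shLacZ was 199, 331, 333, 282, 242, 231 and 266. The shDis3l2 values were 125, 299.8, 331, 271, 268, 221 and 245. Both d0 libraries lay below every later library, and from d2 on the lines lay close together. The rise from d0 to d2 was 0.97 on the log2 scale (SE 0.18, edgeR adjusted p = 0.000835), and no later step passed. The largest ratio between the lines was at d0, where shDis3l2 had 0.626 of the shLacZ level (95% counting interval 0.596 to 0.658). At d6 to d12 the log2 difference was 0.04 (SE 0.07, edgeR adjusted p = 0.727).

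Uhrf1 took the opposite course from d0 to d2. It started as the most abundant of the 9 genes per kilobase, at 670.2 scaled CPM in shLacZ and 738 in shDis3l2. In shLacZ it then stood at 299, 273, 165, 153, 141 and 142 from d2 to d12, and in shDis3l2 at 270.4, 289.9, 162, 146, 114 and 119. The d0 libraries lay above all others and those of d6 to d12 below all earlier ones, in both lines. It fell by 1.31 on the log2 scale from d0 to d2 (SE 0.14, edgeR adjusted p = 2.80e-05) and by 0.79 from d4 to d6 (SE 0.14, edgeR adjusted p = 0.00779). The second fall was no longer called without shDis3l2 d4, shLacZ d6 or shDis3l2 d6 (adjusted p up to 0.0980). The lines did not differ by test at d6 to d12 (log2 difference -0.10, SE 0.07, edgeR adjusted p = 0.306). The ratio of Uhrf1 to Dnmt1, per kilobase of exon, was 5.83 in shLacZ and 10.3 in shDis3l2 at d0, 1.56 in both at d2, and between 0.844 and 1.09 from d6 on.

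As both genes act at replication, a list of 12 S phase genes, such as Mcm5 (a subunit of the replicative helicase) and Ccne1 (cyclin E1), is given beside them. Its summed level lay between 2637 and 3209 scaled CPM in the 4 shLacZ libraries of d6 to d12 and between 2177 and 2699.9 in those of shDis3l2, after 3780.0 to 4179.9 over both lines at d0 to d4. At d6 to d12, 10 of the 12 were called lower in shDis3l2 and none higher (median log2 fold -0.35, against 0.02 over all genes, 38.3% of which were called), with Mcm5 at -0.77 (SE 0.06, edgeR adjusted p = 0.000531) and Ccne1 at -0.50 (SE 0.13, edgeR adjusted p = 0.0211). From d0 to d2, 4 were called higher and 1 lower, beside 65.5% of all genes called. At d4 to d6 it was 4 lower, beside 13.8%. From d2 to d4 and from d6 to d12 it was 1 lower each, Ccne1 and Rrm2, a subunit of ribonucleotide reductase. The shares of all genes there were 17.5% and 7.18%. Neither Dnmt1 nor Uhrf1 was called between the lines at d6 to d12, and the part of S phase genes in their levels was not tested.

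Dnmt3b, the de novo methyltransferase known for the epiblast, reached the highest level of the 9 genes. In shLacZ it stood at 53.7, 2116, 993, 232, 368, 412 and 241 scaled CPM. In shDis3l2 it stood at 62.1, 1829, 1095, 100.5, 38.3, 37.6 and 73.7. The lines shared the peak of d2 and the level of d4, and from d6 on all 4 shLacZ libraries lay above all 4 shDis3l2 libraries. The rise from d0 to d2 was 5.01 on the log2 scale (SE 0.97, edgeR adjusted p = 0.00109). The step from d4 to d6, -2.95 (SE 0.88), missed the threshold (edgeR adjusted p = 0.0516), and it passed with library totals, without the filter, over protein-coding genes alone, with DESeq2 and without shLacZ d4 (adjusted p from 0.00385 to 0.0536 over the alternatives that kept all libraries).

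The ratio of the lines for Dnmt3b was 0.433 at d6 (95% counting interval 0.404 to 0.464), 0.104 at d8 (0.0967 to 0.112), 0.0914 at d10 (0.0847 to 0.0985) and 0.306 at d12 (0.283 to 0.331). These intervals lie apart except for those of d8 and d10, so the gap was widest at d8 and d10 and narrower at d12. Over d6 to d12, Dnmt3b fell by 2.35 on the log2 scale in shDis3l2 relative to shLacZ (SE 0.39, edgeR adjusted p = 0.00439, passed in all 9 alternatives). The interaction with d0 to d4 was -2.45 (SE 0.48, edgeR adjusted p = 0.0135) and was lost without d2 (adjusted p = 0.0526).

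Dnmt3c, a rodent gene that arose as a copy of Dnmt3b and is known for methylation in the male germ line, was counted alongside. Its level in shLacZ was 0.263, 127, 60.3, 11.5, 19.9, 23.9 and 13.4. In shDis3l2 it was 0.0588, 108, 64.8, 6.05, 1.76, 2.04 and 3.09. As with Dnmt3b, the d2 libraries were the highest and shDis3l2 was the lower from d6 on, at a far lower level. Of the windows of 75 bases in the Dnmt3b transcript compared, 7.72% were also in Dnmt3c, so a share of the reads could be split between them.

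Dnmt3a, the other de novo enzyme, shared the peak of d2 but not the later course. Its level in shLacZ was 13.7, 533, 134, 93.7, 186, 168 and 127. The shDis3l2 values were 6.41, 522, 146, 90.4, 228, 254 and 239.8. The lines lay together from d2 to d6, and shDis3l2 was the higher from d8 on. The rise from d0 to d2, 5.67 on the log2 scale (SE 0.42, edgeR adjusted p = 2.96e-06), was the largest of the 9 genes, and from d2 to d4 it fell by 1.92 (SE 0.36, edgeR adjusted p = 0.00607). The fall was not called without shDis3l2 d4 (adjusted p = 0.0618), the highest of its 9 alternatives.

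The ratio of the lines for Dnmt3a was 0.965 at d6 (95% counting interval 0.888 to 1.05), 1.23 at d8 (1.18 to 1.29), 1.52 at d10 (1.43 to 1.61) and 1.89 at d12 (1.77 to 2.01). Each later interval lay above the one before. Over d6 to d12 the log2 difference was 0.50 (SE 0.15, edgeR adjusted p = 0.0355), a call that was lost without d8, d10 or d12 (adjusted p up to 0.146). The interaction with d0 to d4, 0.71 (SE 0.29), missed the threshold (edgeR adjusted p = 0.140) and passed only without the filter. At d0, where the counts were 417 and 109, shDis3l2 had 0.468 of the shLacZ level (0.376 to 0.580).

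Dnmt3l, the catalytically inactive partner, was already at 180.1 scaled CPM in shLacZ and 183 in shDis3l2 in the undifferentiated state. In shLacZ it was then 282, 72.3, 50.3, 61.2, 52.1 and 46.0 from d2 to d12, and in shDis3l2 356, 30.9, 5.25, 5.48, 10.3 and 24.8. In shLacZ the level stayed between 46.0 and 61.2 from d6 on, while in shDis3l2 it was lowest at d6 and d8. The step from d2 to d4 was -3.00 on the log2 scale (SE 0.85, edgeR adjusted p = 0.0359), and it was lost without shDis3l2 d2, shLacZ d4 or shDis3l2 d4 (adjusted p up to 0.324). From d0 to d2 the estimate was 0.89 (SE 0.78, edgeR adjusted p = 0.339).

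The lines parted earlier for Dnmt3l than for Dnmt3b. The ratio was 0.428 at d4 (95% counting interval 0.382 to 0.479), 0.104 at d6 (0.0785 to 0.136), 0.0895 at d8 (0.0732 to 0.109), 0.198 at d10 (0.169 to 0.233) and 0.540 at d12 (0.466 to 0.625). The counting intervals of d10 and d12 lay above those of d6 and d8. Over d6 to d12, Dnmt3l was lower in shDis3l2 than in shLacZ by 2.38 on the log2 scale (SE 0.41, edgeR adjusted p = 0.00502, passed in all 9 alternatives). The interaction, -2.18 (SE 0.56, edgeR adjusted p = 0.0350), was lost with library totals and without d0, d2, d6, d8 or d10 (adjusted p up to 0.140).

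Per kilobase of exon, the largest part of the DNMT3 family passed from Dnmt3l to Dnmt3b and, in shDis3l2, on to Dnmt3a. At d0 Dnmt3l made up 84.2% of the summed level of Dnmt3a, Dnmt3b and Dnmt3l in shLacZ and 83.0% in shDis3l2. At d2 Dnmt3b made up 76.6% and 70.4%, and at d4 85.8% and 91.8%. In shLacZ the share of Dnmt3b then stayed between 66.9% and 74.6%, with Dnmt3a between 8.29% and 10.9%. In shDis3l2, Dnmt3a made up 20.2%, 59.5%, 58.5% and 38.8% on the same days, the last equal to the 38.8% of Dnmt3b. The ratio of Dnmt3b to Dnmt3a per kilobase was 6.17 to 8.07 in the shLacZ libraries of d6 to d12 and 3.62, 0.547, 0.483 and 1.001 in those of shDis3l2. The summed level of the family was 67.9 to 108 scaled CPM per kilobase in the former and 23.1 to 37.1 in the latter, without overlap. These exon lengths include alternative exons, and for Dnmt3a the length, 16642 bases, is over 3 times that of Dnmt3b, so the shares depend on which transcripts were present.

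**Figure D4:**
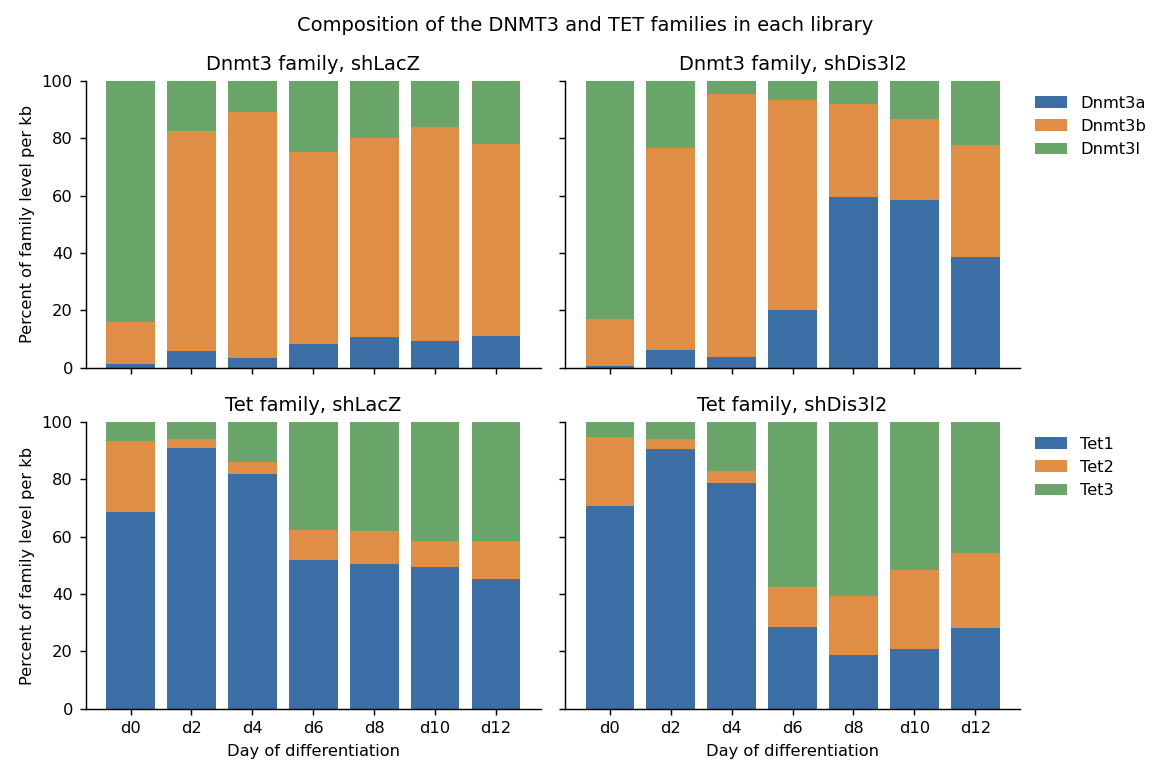
Share of each gene in the summed level per kilobase of its family (bars from 0 to 100%), for the DNMT3 genes above and the TET genes below, shLacZ on the left and shDis3l2 on the right. At d8 Dnmt3a made up 10.8% of the DNMT3 sum in shLacZ and 59.5% in shDis3l2, and Tet1 50.3% and 18.6% of the TET sum.

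Tet1, the main TET enzyme of ESCs, ran parallel to Dnmt3b. Its scaled CPM in shLacZ was 65.8, 499, 182, 82.1, 106, 96.1 and 102. In shDis3l2 it was 51.5, 408, 148, 46.4, 37.2, 47.5 and 71.1. The shDis3l2 library was the lower on all 7 days, and from d6 on the 4 libraries of each line did not overlap. Tet1 rose by 2.96 on the log2 scale from d0 to d2 (SE 0.29, edgeR adjusted p = 1.32e-05). It fell by 1.46 from d2 to d4 (SE 0.27, edgeR adjusted p = 0.00631) and by 1.42 from d4 to d6 (SE 0.28, edgeR adjusted p = 0.00988). The first fall was lost without shDis3l2 d2 or shLacZ d4 (adjusted p up to 0.0654), the second without shDis3l2 d4, shLacZ d6 or shDis3l2 d6 (up to 0.109).

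The ratio of the lines for Tet1 was between 0.783 and 0.818 at d0 to d4, then 0.566 at d6 (95% counting interval 0.509 to 0.628), 0.351 at d8 (0.323 to 0.382), 0.494 at d10 (0.451 to 0.542) and 0.697 at d12 (0.636 to 0.763). As with Dnmt3b and Dnmt3l, the gap was narrower at d12 than at d8. Tet1 was lower in shDis3l2 than in shLacZ by 0.91 on the log2 scale over d6 to d12 (SE 0.15, edgeR adjusted p = 0.00388, passed in all 9 alternatives) and by 0.68 over all 7 days (SE 0.15, edgeR adjusted p = 0.0314). The latter call was lost without d6, d8, d10 or d12 (adjusted p up to 0.109). The interaction, -0.66 (SE 0.20), missed the threshold (edgeR adjusted p = 0.0616) and passed in 4 of 12 alternatives.

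Tet2, an oxygenase of the same family, had the reverse difference between the lines at d6 to d12, and its minimum was at d4 in both lines. In shLacZ it was 26.7, 20.1, 10.4, 18.9, 27.3, 19.7 and 33.0 scaled CPM. The shDis3l2 values were 19.8, 17.8, 8.70, 25.6, 46.9, 71.2 and 73.3. The shLacZ libraries after d4 lay between 18.9 and 33.0, and the shDis3l2 libraries of d8 to d12 lay above every shLacZ library. No step between days passed the test for Tet2, with 1.204 on the log2 scale at d4 to d6 (SE 0.50, edgeR adjusted p = 0.135) and 1.202 at d6 to d12 (SE 0.48, edgeR adjusted p = 0.143).

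The ratio of the lines for Tet2 was 1.36 at d6 (95% counting interval 1.14 to 1.61), 1.72 at d8 (1.54 to 1.92), 3.61 at d10 (3.08 to 4.25) and 2.23 at d12 (1.96 to 2.53). It was highest at d10, where the counts were 169 in shLacZ and 1606 in shDis3l2. Tet2 was higher in shDis3l2 by 1.11 on the log2 scale over d6 to d12 (SE 0.21, edgeR adjusted p = 0.00700, passed in all 9 alternatives). The interaction was 1.34 (SE 0.29, edgeR adjusted p = 0.0185) and was lost without d0 or d2 (adjusted p up to 0.0634).

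Tet3, known from the oocyte and from neural cells, was the lowest of the 9 genes per kilobase at d0 and increased along the course. In shLacZ it was 7.06, 35.2, 34.2, 65.9, 88.9, 88.8 and 103 scaled CPM. In shDis3l2 it was 4.18, 29.0, 35.7, 103, 134, 131 and 127. The shDis3l2 libraries of d8 to d12 lay above every shLacZ library, and that of d6 was level with the highest one. Tet3 rose by 2.48 on the log2 scale from d0 to d2 (SE 0.32, edgeR adjusted p = 7.70e-05) and by 1.26 from d4 to d6 (SE 0.30, edgeR adjusted p = 0.0225). The second rise was lost without shLacZ d4, shDis3l2 d4 or shDis3l2 d6 (adjusted p up to 0.192).

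The ratio of the lines for Tet3 was 1.569 at d6 (95% counting interval 1.44 to 1.71), 1.51 at d8 (1.42 to 1.61), 1.48 at d10 (1.36 to 1.602) and 1.23 at d12 (1.14 to 1.33). It was steadier over these days than the ratio of Tet2. Tet3 was higher in shDis3l2 by 0.58 on the log2 scale over d6 to d12 (SE 0.08, edgeR adjusted p = 0.00207, passed in all 9 alternatives). The interaction was 0.81 (SE 0.19, edgeR adjusted p = 0.0231) and was lost without d2, d8 or d10 (adjusted p up to 0.0754).

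Per kilobase, Tet1 made up 68.5% of the TET sum in shLacZ and 70.6% in shDis3l2 at d0, and 91.0% and 90.7% at d2. From d6 on it made up 45.4% to 51.8% in shLacZ and 18.6% to 28.6% in shDis3l2. Tet3 was the largest part in all 4 late shDis3l2 libraries, at 57.4%, 60.5%, 51.6% and 45.6%, and between 37.5% and 41.5% in those of shLacZ. Tet2 reached 27.7% in shDis3l2 d10. The summed level per kilobase, 10.5, 13.98, 12.9 and 14.9 in shLacZ and 10.8, 13.3, 15.2 and 16.7 in shDis3l2 from d6 to d12, overlapped between the lines. The TET genes therefore differed between the lines in composition at d6 to d12 and not in a sum that separated them, unlike the DNMT3 genes.

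Tdg was low throughout, between 4.35 and 13.99 scaled CPM. In shLacZ it was 5.68, 11.6, 11.3, 8.35, 8.12, 9.11 and 9.28, and in shDis3l2 4.35, 10.8, 13.99, 8.80, 8.00, 6.21 and 7.11. It rose by 1.16 on the log2 scale from d0 to d2 (SE 0.26, edgeR adjusted p = 0.00296), and the lines overlapped. At d6 to d12 the log2 difference of the lines was -0.16 (SE 0.16, edgeR adjusted p = 0.483). These values are uncertain because of Tdg-ps, a copy of the Tdg transcript elsewhere in the genome that shares 42.2% of the 75-base windows of Tdg and was counted at 4.94 to 22.1 scaled CPM, above Tdg in every library. The sum of both was 15.8 at d0 and 29.9 at d2 in shLacZ, and 9.30 and 30.0 in shDis3l2.

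Ranked by level per kilobase, averaged over the lines, Uhrf1, Dnmt3l and Dnmt1 led at d0 with 157, 60.3 and 27.0 scaled CPM per kilobase in shLacZ, and Tdg, Dnmt3a and Tet3 came last. Neighbours in the order did not overlap between their 2 libraries except for Tdg with Dnmt3a and Dnmt3a with Tet3. At d2 Dnmt3b led with 414 in shLacZ, ahead of Dnmt3l, Uhrf1 and Dnmt1, while Dnmt3a and Tet1 overlapped, as did Tdg and Tet3, and Tet2 was last. From d6 on Dnmt1, Uhrf1 and Dnmt3b led this averaged order and overlapped, with the lines far apart for Dnmt3b. At d8 and d10 Dnmt3b stood at 72.1 and 80.7 in shLacZ, above Dnmt1 and Uhrf1. In shDis3l2 it stood at 7.51 and 7.37, below Dnmt3a (13.7 and 15.3). Tdg was the lowest at d8, d10 and d12, where it overlapped with Tet2 at d10 only.

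The late differences stood beside differences in cell type markers, and in bulk RNA fewer cells of a type and less RNA per cell cannot be told apart. Pou5f1 stood at 113, 163, 210.3 and 137 scaled CPM in shLacZ from d6 to d12 and at 13.4, 17.3, 38.9 and 77.0 in shDis3l2. Otx2, a transcription factor of the primed epiblast, stood at 8.86, 26.7, 30.8 and 29.5 and at 1.78, 1.571, 2.71 and 6.35. For both, no late shDis3l2 library reached a shLacZ library, and the level in shDis3l2 was highest at d12, as it was for Dnmt3l and Tet1. Of 7 markers of undifferentiated stem cells, 6 were called lower in shDis3l2 at d6 to d12 and none higher, beside 38.3% of all genes called. Their summed level was 414 to 469.6 in the late shLacZ libraries and 131 to 279 in the shDis3l2 libraries, and each marker had over 3 counts in each of these libraries.

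All 3 primed epiblast markers (Otx2, Fgf5 and Pou3f1) were called lower as well, with sums of 17.4 to 66.6 in shLacZ and 2.71 to 12.8 in shDis3l2. Each count of called markers in these lists stands beside 38.3% of all genes called. The 3 streak markers were called lower (25.2 to 91.8 and 3.57 to 17.3), and so were the 4 endoderm markers (296 to 2226 and 104 to 668), 2 of 4 germ cell markers (8.52 to 23.6 and 5.24 to 12.6) and 2 of 3 neural markers (8.06 to 46.9 and 8.78 to 88.6). The other germ cell and neural markers were not called, with log2 differences of 0.96 (Dazl), -0.68 (Mael) and 0.58 (Tubb3). The neural markers called lower were Sox1 (-2.58) and Pax6 (-1.08). The neural sum was higher in shDis3l2 at d6 (88.6, shLacZ 12.4) and d8 (16.3, shLacZ 8.06) and lower at d10 and d12. In shDis3l2 d6, 2 of the 3 neural markers had 3 counts or fewer, so nearly all of that sum came from 1 gene. The germ cell sum was lower in shDis3l2 at d6 to d10 and higher at d12 (12.6, shLacZ 8.52). Both cardiac markers were called higher (3.70 to 13.6 and 6.14 to 70.1), and 1 of 2 blood markers, Hbb-bh1 (2.46 to 330.5 and 10.9 to 428). In each late library at most 2 of the 4 germ cell markers, 2 of the 3 neural markers and 1 of the 2 blood markers had 3 counts or fewer. The part of these cell types in the levels of the 9 genes was not tested.

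Set against Pou5f1 in the same library, per kilobase, the 3 lower genes behaved differently from each other. Dnmt3l was at 0.334, 0.282, 0.186 and 0.254 of the Pou5f1 level in shLacZ from d6 to d12 and at 0.294, 0.238, 0.200 and 0.243 in shDis3l2, which overlap. Dnmt3b was at 0.901, 0.993, 0.863 and 0.776 in shLacZ and at 3.29, 0.976, 0.426 and 0.421 in shDis3l2. Tet1 was at 0.108, 0.0969, 0.0682 and 0.111 in shLacZ and at 0.516, 0.321, 0.182 and 0.138 in shDis3l2, all above shLacZ. The Pou5f1 level may hold reads of its many processed copies.

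**Figure D5:**
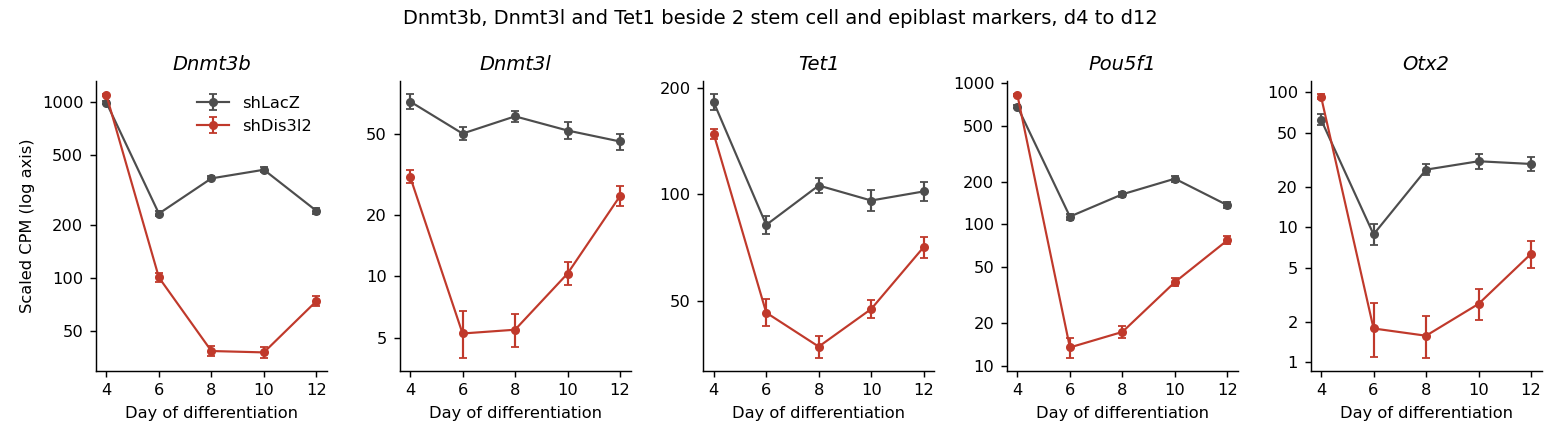
Scaled CPM (log axis) from d4 to d12 of Dnmt3b, Dnmt3l and Tet1 beside Pou5f1 and Otx2, 1 point per library, shLacZ in grey and shDis3l2 in red, with 95% counting intervals. For all 5 genes each shDis3l2 library from d6 on lies below the shLacZ library of its day, and Pou5f1 in shDis3l2 goes from 13.4 at d6 to 77.0 at d12.

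Other genes of the pathway were read from 3 lists. All 20 genes of the list for targeting and regulation of the writers were called from d0 to d2, 12 higher and 8 lower (median log2 fold 1.04, against 0.12 over all genes), beside 65.5% of all genes called. Qser1, which protects CpG islands from de novo methylation, rose by 3.25 on the log2 scale (SE 0.19, edgeR adjusted p = 1.09e-06), and Dnmt3c also rose, from the 8 counts and 1 count of the d0 libraries. Prdm14, a repressor of the de novo enzymes in naive ESCs, fell by 5.97 (SE 0.77, edgeR adjusted p = 7.81e-05), from 36.7 and 21.8 scaled CPM at d0 to 0.454 and 0.446 at d2. Dppa3, which keeps UHRF1 from chromatin, fell by 3.57 (SE 0.72, edgeR adjusted p = 0.00144).

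From d2 to d4, 2 of the 20 were called higher and 4 lower. Uhrf2, the paralog of Uhrf1, rose by 1.16 (SE 0.19, edgeR adjusted p = 0.00358) and Lig1, the ligase of replication, by 0.58 (SE 0.18, edgeR adjusted p = 0.0477). Hells, a remodeller needed for methylation of repeats, fell by 0.9997 (SE 0.21, edgeR adjusted p = 0.0109) and Usp7, a deubiquitinase that binds DNMT1 and UHRF1, by 0.67 (SE 0.18, edgeR adjusted p = 0.0254). From d4 to d6, 8 were called lower and none higher, with Dnmt3c at -3.14 (SE 0.83, edgeR adjusted p = 0.0340) and Cdca7l at -2.21 (SE 0.27, edgeR adjusted p = 0.00196). From d6 to d12, only Ehmt2, a histone methyltransferase, was called, at 0.61 (SE 0.15, edgeR adjusted p = 0.0362). The shares of all genes called at d2 to d4, d4 to d6 and d6 to d12 were 17.5%, 13.8% and 7.18%. Between the lines at d6 to d12, 10 of the 20 were called lower in shDis3l2 and none higher (median -0.27, against 0.02 over all genes), beside 38.3% of all genes called. Hells was at -0.53 (SE 0.09, edgeR adjusted p = 0.00386) and Dnmt3c at -2.46 (SE 0.44, edgeR adjusted p = 0.00588).

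Of 13 readers of methylated or unmethylated CpG, 5 were called higher and 2 lower from d0 to d2 (median 0.09, against 0.12 over all genes), a smaller share than the 65.5% of all genes called. Zbtb33 (Kaiso) rose by 4.04 (SE 0.44, edgeR adjusted p = 2.45e-05), and Cxxc4, which binds TET2, rose from 1 count over both d0 libraries to 9.99 and 9.27 scaled CPM. Cxxc5, its paralog, fell by 2.39 (SE 0.27, edgeR adjusted p = 3.56e-05) and Mbd3, a subunit of the NuRD complex, by 0.75 (SE 0.13, edgeR adjusted p = 0.000674). From d2 to d4, Cxxc5 (1.65) and Zbtb4 (1.55) rose. From d4 to d6, Mbd2 rose by 1.40, and 3 fell, Kdm2b (-1.37), Cxxc5 (-1.02) and Cxxc1 (-0.75). Zbtb4 rose once more from d6 to d12 (1.37). Of all genes, 17.5% were called at d2 to d4, 13.8% at d4 to d6 and 7.18% at d6 to d12. At d6 to d12, 3 of the 13 were called higher in shDis3l2 and none lower, beside 38.3% of all genes called, among them Cxxc4 by 0.46 (SE 0.13, edgeR adjusted p = 0.0285) and Zbtb4 by 0.44 (SE 0.09, edgeR adjusted p = 0.00818).

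Of 16 genes for cofactors of oxidation and for base excision repair, 4 were called higher and 8 lower from d0 to d2 (median -0.45, against 0.12 over all genes), beside 65.5% of all genes called. Gadd45b, a stress-induced adaptor linked to demethylation, fell by 5.44 (SE 0.64, edgeR adjusted p = 4.47e-05) and Ung, the uracil glycosylase, by 2.30 (SE 0.36, edgeR adjusted p = 0.000306). Its relative Gadd45g rose by 1.94 (SE 0.44, edgeR adjusted p = 0.00308) and Lig3, the ligase of base excision, by 1.596 (SE 0.15, edgeR adjusted p = 9.95e-06). From d2 to d4 Gadd45b rose (2.24) and Gadd45g (-2.69) and Gadd45a (-1.32) fell, and from d4 to d6 Gadd45g (2.50) and Idh1 (0.92) rose and Parp1 (-0.64) fell. None was called from d6 to d12. Over all genes the shares called in these later steps were 17.5%, 13.8% and 7.18%. Between the lines at d6 to d12, 2 of the 16 were called higher in shDis3l2 and 4 lower, a share near the 38.3% of all genes called in this test. Idh2, which makes the TET cosubstrate in mitochondria, was higher by 0.67 (SE 0.11, edgeR adjusted p = 0.00416) and Ogt, which binds TET proteins, by 0.31 (SE 0.06, edgeR adjusted p = 0.00984). Neil2, a glycosylase, was lower by 0.83 (SE 0.21, edgeR adjusted p = 0.0195), Ung by 0.51 (SE 0.15, edgeR adjusted p = 0.0335), Apex1 by 0.26 and Parp1 by 0.25.

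Across the 14 libraries, which share 2 lines and 7 days, the 9 genes fell into few close pairs on the log2(scaled CPM + 1) scale. Dnmt3b and Tet1 had a Pearson r of 0.933 and Dnmt1 and Tdg 0.916, whereas Uhrf1 and Tet3 had -0.986. Among 11637 protein-coding genes, the pattern most like Dnmt3b was that of Usp44 (r = 0.979), followed by Cecr2 and Zfp106. Tet1 was most like Rims4, Fam169a and Pou3f1 (r from 0.980 to 0.984), and Dnmt3l most like Mkrn1, Utf1 and Zfp987 (0.975 to 0.981). Dnmt3a was most like Zfp619, Casc4 and Gm14326 (0.981 to 0.987), Dnmt1 had Zfp512 (0.971) and Cep97 (0.956) among its closest and Uhrf1 was most like Anp32b, Rbm17 and Npm3 (0.987 to 0.989). Tet3 was most like Spag9, Ndst1 and Gpkow (all 0.990), Tdg like Nt5dc2, Mtor and Morc2a (0.956 to 0.965) and Tet2, with the lowest values, had Vamp2 (0.939) and Rasl11b (0.935) among its closest. These are descriptions of shared courses over the same libraries.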

How the data were processed

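RNA of 14 libraries was sequenced, 1 per line and day. The authors counted reads per gene with featureCounts of Subread on GRCm38 with Ensembl 88, and the deposited table holds raw counts. Strand and multiply mapped reads are not given in the sources used here. A second deposited table holds CPM for 16181 protein-coding genes, which matched the CPM of count + 0.25 over those genes; it served to define the genes and as an alternative scale. Groups came from the sample labels. The members and gene lists were chosen with earlier results of these data known. Named genes of a list were the pair with the largest change in each direction among those called. A few genes that the rules would name are not reported here.

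Counts were tested with edgeR 4.0.16 (R 4.3.3; two-sided quasi-likelihood F test, TMM scaling, low counts removed by filterByExpr), and genes were called at a Benjamini-Hochberg p under 0.05 over all genes tested, with day as a factor for the lines and line as a term for the days. Alternatives were library totals, DESeq2 size factors, no filter, protein-coding genes only, DESeq2 1.42.0 and leaving out each day or library. Single days were compared by ratio with Clopper-Pearson intervals, which cover counting error only. In counts simulated from these libraries, with 200 genes changed 4-fold, 199 to 200 were recovered in the 7 tests, with 7 to 15 other calls. Every gene was simulated with the same spread and, apart from the planted changes, with the same share of counts in all libraries. Changes were planted only in genes that were not low in counts. In the measured counts, Dnmt3b at d4 to d6 had a log2 fold of -2.95 (SE 0.88) and was not called. Recovery at such a spread was not tested. Tables and figures were made with Python 3.11.15, numpy 2.4.6, pandas 2.3.3, scipy 1.17.1 and matplotlib 3.10.9.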

Additional observations from a re-analysis of the deposited data

Results flagged for a closer look

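For 4 of the 9 genes the difference between shDis3l2 and shLacZ at d6 to d12 departed from that at d0 to d4 by the interaction test in edgeR. The log2 change of the difference was -2.45 for Dnmt3b, -2.18 for Dnmt3l, 1.34 for Tet2 and 0.81 for Tet3. Each of these calls was lost in at least 1 of the fits that left out a day.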

How the results depend on the processing

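Calls at d6 to d12 between the lines for Dnmt3b, Dnmt3l, Tet1, Tet2 and Tet3 and the 7 calls at d0 to d2 held in all 9 alternatives. Of the 621 alternative values of the tests on single genes, 558 kept direction and side of the threshold, 34 lost the call, 14 gained it and 15 turned direction, none of them called. With library totals, those that turned were the interaction for Tdg (0.010), Tet2 at d0 to d2 (0.25) and Uhrf1 at d2 to d4 (0.0087). The others turned when a day or library was left out, over which the log2 fold ran from -0.032 to 0.068 for Dnmt1 between the lines at d6 to d12, from -0.25 to 0.021 for the interaction of Tdg, from -0.51 to 1.99 for Dnmt3l and from -0.80 to 0.30 for Tet2 at d0 to d2, from -0.11 to 0.087 for Uhrf1, from -0.15 to 0.45 for Tet3 and from -0.11 to 0.44 for Tdg at d2 to d4, and from -0.44 to 0.040 for Dnmt3b and from -0.22 to 0.056 for Tdg at d6 to d12. The genes called over all days numbered 1147, with 2093 without the filter, 2522 with DESeq2 and 8 to 2189 when days were left out (102, 13, 8 and 12 without d6, d8, d10 and d12). For the lines at d6 to d12 it was 6574 (3336 to 6677 without a day), and for the interaction 2023 (3279 without the filter, 524 to 2151 without a day). With 1 library left out, 3506 genes at d2 to d4 became 1032 to 2173, 2762 at d4 to d6 became 309 to 1782, and 1439 at d6 to d12 became 95 to 464 (2706 with DESeq2). Genes past 2-fold on d0 to d12 in turn numbered 1128, 209, 866, 1971, 2714, 3211 and 2450, and with a minimum CPM of 5 they were 538, 37, 317, 1153, 1772, 2098 and 1432. With no minimum they were 1807, 716 and 1447 at d0, d2 and d4. The causes were not tested. The tests of the lines were paired by day, with 1 library per line in each pair. The counts of Tdg (74 to 333) limit the precision of its ratios. The levels themselves depended on the scale. Dnmt1 in shDis3l2 d0 was 124.6 scaled CPM, 80.0 CPM with library totals and 106.3 in the deposited CPM. For Uhrf1 in shLacZ d0 these values were 670.2, 512 and 653, and for Dnmt3b in shLacZ d2 2116, 2295 and 2641.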
